A study of Mus musculus with 10 samples.

Results

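The 10 genes examined encode the 3 TGF-beta ligands (*Tgfb1*, *Tgfb2* and *Tgfb3*), their 3 receptors (*Tgfbr1*, *Tgfbr2* and *Tgfbr3*) and the 4 latent TGF-beta binding proteins (*Ltbp1*, *Ltbp2*, *Ltbp3* and *Ltbp4*). They were chosen by gene name from the expression table of OP9 cells, and each name matched 1 of the 26888 genes. All 10 were above 0.5 RPM (the reads of a gene scaled to an equal total of reads on genes in each library) in at least 1 library and so were among the 16933 genes tested.

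OP9 is a stromal line from the calvaria of (C57BL/6xC3H)F2-op/op mice, and all 10 RNA-seq libraries came from this 1 line. It was labelled a foetal calvaria line, while the paper describes the mice of origin as newborn. In 6 libraries the cells had been dispersed with trypsin, reaggregated and kept for 48 h at the interface of liquid and gas on nitrocellulose filters (0.8 µm), and IL3 (200 µg/µl) was present in reaggregates 2, 4 and 6 and not in reaggregates 1, 3 and 5. The other 4 libraries came from flat cultures submersed in medium, of which flat cultures 2 and 4 carried the label of the de Bruijn laboratory and flat cultures 1 and 3 carried no source label. Per the study's methods, reaggregates were broken up with collagenase and dispase before RNA extraction. No such step is described for flat cultures, so this handling cannot be told apart from culture form. The study's methods name the Medvinsky and de Bruijn groups as earlier keepers of the cells in flat culture. They also give the variance from cell source as equal to that from passage number. Over genes with a mean of at least 10 RPM, flat cultures 1 and 3 differed by a root mean square of 0.72 in log2(RPM + 0.5). Flat cultures 2 and 4 differed by 0.48, and flat cultures of different label by 0.97 to 1.13. Spread from passage number was not tested. The source of the cells in the reaggregates was not labelled, so source and culture form cannot be fully told apart, and nothing in the labels says that replicates were grown independently, so p-values measure only the spread between these libraries.

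TGF-beta ligands are made as precursors whose propeptide stays bound to the mature dimer and keeps it inactive. Latent TGF-beta binding proteins attach this small latent complex to fibrillin and fibronectin in the matrix, from which integrins and proteases release the active ligand. Active ligand is captured by the type II receptor, helped for some ligands by betaglycan, and the type I receptor then phosphorylates SMAD2 and SMAD3, a pathway that in stromal cells is known for the induction of matrix and contractile genes.

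Depth, read from the RPM value that occurs most often above 0 and stands for 1 read, was between 7352940 and 9433960 reads on genes per library, and 3 reads corresponded to between 0.318 and 0.408 RPM. The 10 genes rested on between 76 and 7832 estimated reads each, with a counting error of at most 11.5% and no other error included. Consecutive reaggregates (1 with 2, 3 with 4, 5 with 6) were close to each other. Their log2(RPM + 0.5) values of the 10 genes differed by a root mean square of 0.095 to 0.22, against 0.33 to 0.68 for the other pairs of reaggregates. The 6 reaggregates were counted as separate libraries, and results are also given with these pairs averaged as 3 samples.

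Of the 10 genes, 4 were higher in reaggregates than in flat cultures by at least 2-fold at an adjusted p of at most 0.05 (limma on log2(RPM + 0.5), Benjamini-Hochberg adjustment over all genes tested), where 7.32% of all genes tested were called higher. These were *Tgfb2*, *Tgfb3*, *Ltbp3* and *Ltbp4*. None of the 10 was called lower, where 6.53% of all genes were. The adjusted p alone was at most 0.05 for 5 of the 10, the fifth being *Tgfbr2*, and for 29.3% of all genes in either direction. The median log2 fold change of the 10 genes was 0.82, beside 0.035 over all genes tested, and 8 of the 10 had the higher mean in reaggregates. In such bulk libraries, a change in the number of cells of a type and a change in RNA per cell cannot be told apart. The count of 4 depended on the libraries. It was 1 (*Tgfb3*) with the reaggregate pairs averaged, where 1.84% of all genes were called higher, and without flat culture 1 it was 2 higher (*Tgfb3* and *Ltbp4*) and 1 lower (*Ltbp2*), where 6.81% and 6.79% of all genes were. Without flat culture 3 it was 5, where 12.5% of all genes were called higher, and without flat culture 4 it was 3, where 4.52% were.

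**Figure D1:**
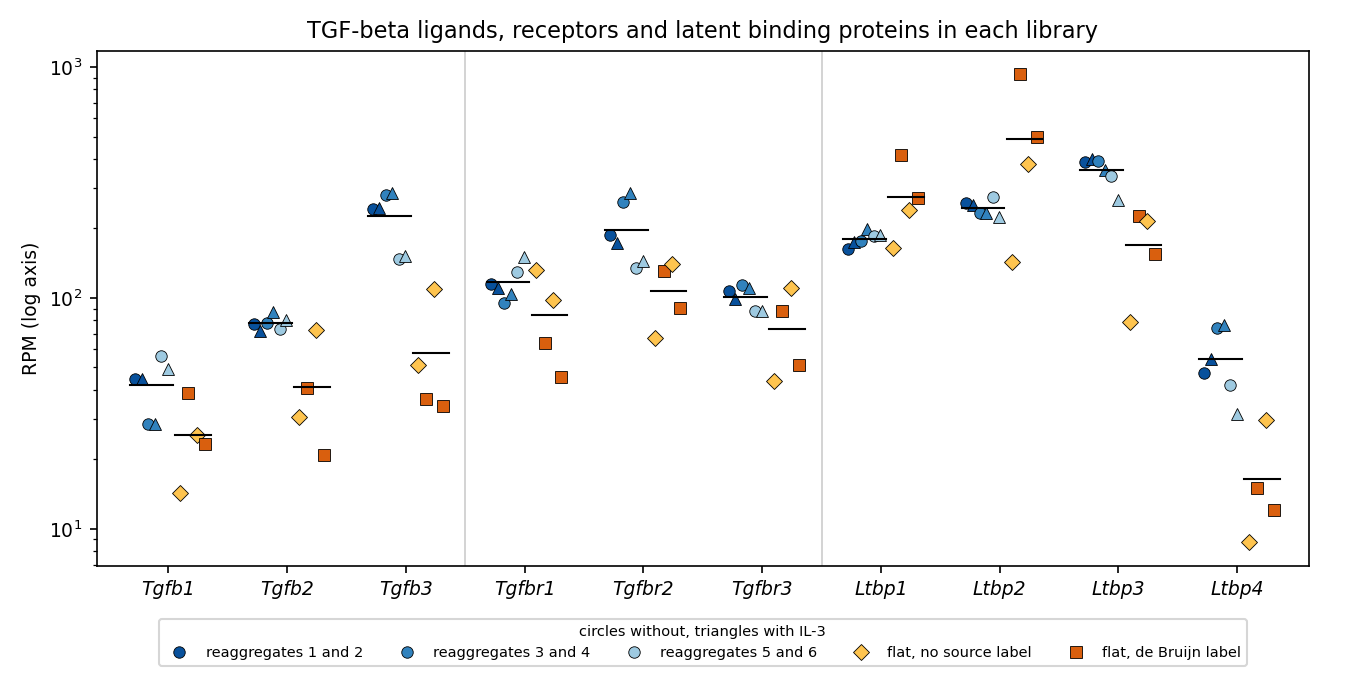
RPM (log axis) of each of the 10 genes in each library, with reaggregates on the left and flat cultures on the right of each gene name, a bar at the mean of each group, and vertical lines between ligands, receptors and latent binding proteins. Every reaggregate lies above every flat culture for *Tgfb3*, *Ltbp3* and *Ltbp4*, and the groups overlap for the other 7 genes.

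Among the ligands, *Tgfb3* rose most and *Tgfb2* rose by less, and *Tgfb1* did not pass the test. *Tgfb3* (chromosome 12, 87397694 to 87419991, minus strand, NCBIM37) encodes the ligand known for palate fusion and lung development. Its lowest, median and highest values in reaggregates were 148, 245 and 285 RPM, and flat cultures 1 to 4 were at 51.5, 36.6, 109 and 33.9 RPM. Every reaggregate was above every flat culture. Flat culture 3 was the highest of its group, and reaggregates 5 and 6 were the lowest of theirs. The mean was 226 ± 61.1 RPM (SD, n = 6) against 57.8 ± 35.0 RPM (SD, n = 4), which makes 2.07 ± 0.32 on the log2 scale (SE, limma, adjusted p = 0.00129). The exact two-sided permutation test over libraries gave p = 0.00476, the smallest that 6 libraries against 4 allow, and takes consecutive reaggregates as separate. With each pair averaged, as 3 samples against 4, the exact permutation p was 0.0571 for each of *Tgfb2*, *Tgfb3*, *Ltbp3* and *Ltbp4*, where the smallest possible is 0.0286. The limma call of *Tgfb3* was kept in all alternatives tried, with log2 fold changes from 1.53 to 2.61 and adjusted p from 6.53e-05 to 0.0328.

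*Tgfb2* (chromosome 1, 188447065 to 188529871, minus strand), whose ligand needs betaglycan for high-affinity binding to its type II receptor, had a lowest, median and highest value of 72.0, 77.7 and 87.1 RPM in reaggregates. Flat cultures 1 to 4 were at 30.5, 40.7, 72.6 and 20.8 RPM. The reaggregates lay close together, and flat culture 3 lay just inside their range while the other flat cultures were below it. The mean was 78.0 ± 5.36 RPM (SD, n = 6) against 41.2 ± 22.5 RPM (SD, n = 4), which makes 1.06 ± 0.27 on the log2 scale (SE, limma, adjusted p = 0.0140; exact permutation p = 0.00952). The call was lost without flat culture 1 (log2 fold change 0.97) or flat culture 4 (0.79), under quantile normalization (0.99), against the unlabelled flat cultures alone (0.72), with either IL-3 group of reaggregates alone and with pairs averaged, and its adjusted p ran from 0.000401 to 0.129 over the alternatives.

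*Tgfb1* (chromosome 7, 26472021 to 26490096, plus strand), the most widely expressed ligand of the family in most tissues, was between 28.5 and 56.2 RPM in reaggregates with a median of 44.8 RPM. Flat cultures 1 to 4 were at 14.3, 38.8, 25.4 and 23.2 RPM. Reaggregates 3 and 4 lay below flat culture 2, so that the groups overlapped, and the log2 fold change, 0.75 with an SE of 0.28, did not pass (limma, adjusted p = 0.0616). Against the unlabelled flat cultures alone it was 1.07 and passed (adjusted p = 0.0477, in a range of 0.0249 to 0.251 over the alternatives).

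The 3 receptors had higher means in reaggregates, and none passed both thresholds. *Tgfbr2* (chromosome 9, 115993415 to 116084383, minus strand), the type II receptor that binds ligand, had a lowest, median and highest value of 135, 180 and 285 RPM in reaggregates, and flat cultures 1 to 4 were at 67.2, 131, 141 and 90.1 RPM. The groups overlapped because reaggregate 5 lay below flat culture 3, and reaggregates 3 and 4 were the highest libraries. The log2 fold change was 0.88 with an SE of 0.27 (limma, adjusted p = 0.0289), below the 2-fold threshold. Its adjusted p was above 0.05 without reaggregate 1, 3 or 4 or flat culture 1 or 4, against the unlabelled flat cultures (0.0920), with no filter (0.0733), with pairs averaged (0.135) and with either IL-3 group alone, in a range of 0.0132 to 0.137 over the alternatives. Without flat culture 3 the log2 fold change was 1.03 and passed.

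*Tgfbr1* (chromosome 4, 47366094 to 47427803, plus strand), the type I receptor kinase, was between 95.1 and 151 RPM in reaggregates with a median of 113 RPM. Flat cultures 1 to 4 were at 132, 64.1, 97.6 and 45.4 RPM. Both flat cultures of the de Bruijn label were below every reaggregate, while both unlabelled ones were within the reaggregate range. The log2 fold change was 0.57 with an SE of 0.26 (limma, adjusted p = 0.117) against all flat cultures, 1.10 (adjusted p = 0.00138) against those with the de Bruijn label and 0.035 (adjusted p = 0.915) against those without, over a range of 0.00138 to 0.915 in the alternatives. The difference between the flat sources, a log2 difference of −1.07 for the de Bruijn label minus the others, did not itself pass (limma, adjusted p = 0.124).

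*Tgfbr3* (chromosome 5, 107535589 to 107718648, minus strand) encodes betaglycan, which presents ligand to the signalling receptors. It was between 87.5 and 114 RPM in reaggregates and between 43.7 and 111 RPM in flat cultures, where flat cultures 2 and 3 lay within the range of the reaggregates. Its log2 fold change was 0.55 with an SE of 0.24 (limma, adjusted p = 0.101, in a range of 0.0123 to 0.333 over the alternatives).

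Among the latent binding proteins *Ltbp3* and *Ltbp4* rose, while *Ltbp1* and *Ltbp2* had lower means in reaggregates that did not pass the test. *Ltbp3* (chromosome 19, 5740904 to 5758532, plus strand), which binds all 3 latent ligands and is known for its part in bone and tooth, had a lowest, median and highest value of 266, 374 and 401 RPM in reaggregates. Flat cultures 1 to 4 were at 79.1, 226, 216 and 155 RPM. Every reaggregate was above every flat culture, with reaggregate 6 the lowest of its group and flat culture 1 the lowest of all libraries. The mean was 358 ± 50.7 RPM (SD, n = 6) against 169 ± 67.7 RPM (SD, n = 4), which makes 1.18 ± 0.27 on the log2 scale (SE, limma, adjusted p = 0.00853; exact permutation p = 0.00476). The fold fell below 2 without flat culture 1 (log2 fold change 0.85) and against the de Bruijn flat cultures alone (0.92). The adjusted p ran from 0.00376 to 0.115 over the alternatives and was above 0.05 with pairs averaged (0.0915) and with either IL-3 group alone.

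*Ltbp4* (chromosome 7, 28090155 to 28122711, minus strand), which binds latent TGF-beta1 and takes part in elastic fibre assembly, had a lowest, median and highest value of 31.3, 51.0 and 76.2 RPM in reaggregates, and flat cultures 1 to 4 were at 8.75, 15.0, 29.7 and 12.1 RPM. The groups did not overlap, although reaggregate 6 lay only just above flat culture 3. The mean was 54.2 ± 17.8 RPM (SD, n = 6) against 16.4 ± 9.24 RPM (SD, n = 4), which makes 1.77 ± 0.33 on the log2 scale (SE, limma, adjusted p = 0.00355; exact permutation p = 0.00476). The call was lost with pairs averaged (adjusted p = 0.0514) and with the IL-3 reaggregates alone (0.0647), the upper end of a range from 0.000432.

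Every reaggregate lay above every flat culture for these 3 of the 10 genes (*Tgfb3*, *Ltbp3* and *Ltbp4*), where 7.8% of all genes tested did, and none lay below, where 11.4% did.

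*Ltbp2* (chromosome 12, 86124162 to 86217482, minus strand), the family member that does not bind latent TGF-beta, was tightly grouped in reaggregates, with a lowest, median and highest value of 224, 244 and 274 RPM. Flat cultures 1 to 4 spread from below to far above this range, at 143, 932, 379 and 498 RPM. Flat culture 1 was the lowest of all libraries and flat culture 2 the highest, so that the reaggregates lay inside the range of the flat cultures. The log2 fold change was −0.70 with an SE of 0.39 (limma, adjusted p = 0.183) and −1.19 without flat culture 1 (adjusted p = 0.00779), within a range of adjusted p from 0.000410 to 0.880. Its exons share 9.33% of their bases with a gene on the other strand, whose reads cannot be told apart where counting does not use strand.

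*Ltbp1* (chromosome 17, 75404908 to 75791852, plus strand), which anchors the latent complex to fibronectin and fibrillin, was between 163 and 199 RPM in reaggregates with a median of 181 RPM. Flat cultures 1 to 4 were at 165, 416, 240 and 271 RPM. Flat culture 1 was within the range of the reaggregates and the other flat cultures were above it. The log2 fold change was −0.52 with an SE of 0.21 (limma, adjusted p = 0.0818) against all flat cultures, −0.90 (adjusted p = 0.00166) against those with the de Bruijn label and −0.14 (adjusted p = 0.548) against those without. Without flat culture 1 it was −0.73 (adjusted p = 0.0143), below 2-fold as in every alternative.

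**Figure D2:**
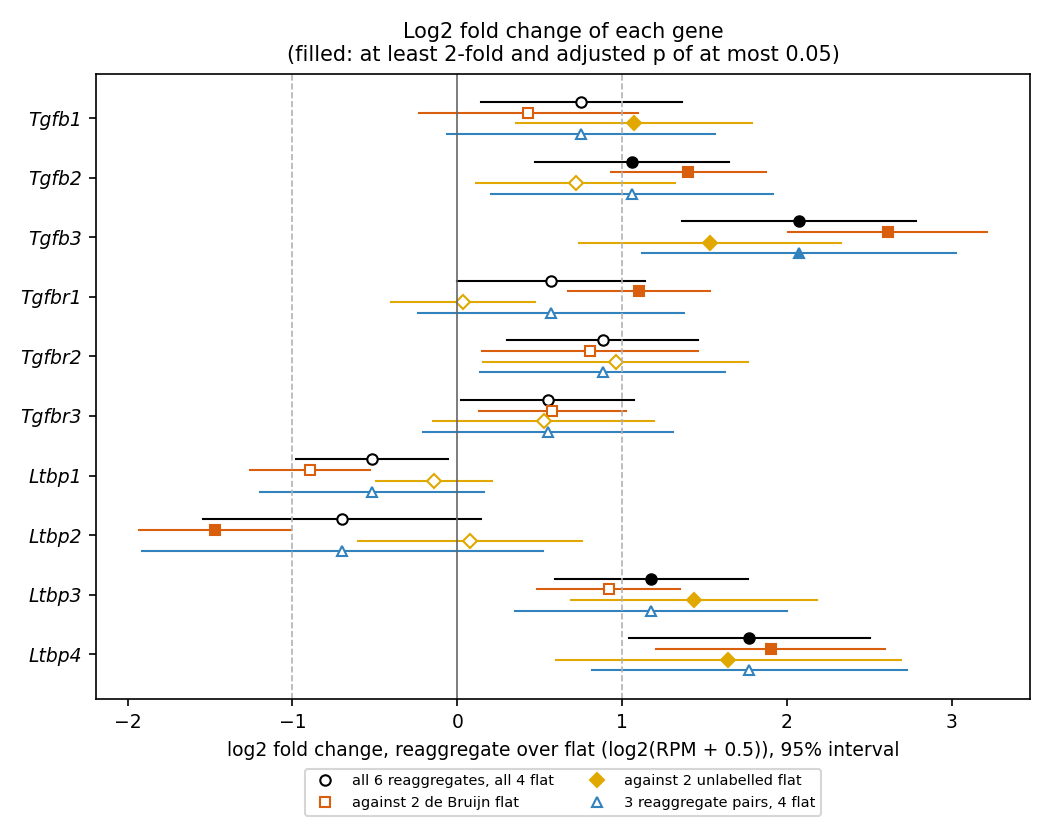
Log2 fold change of each gene, reaggregate over flat culture on the log2(RPM + 0.5) scale, with its 95% interval from limma, for all libraries, against each source of flat cultures and with reaggregate pairs averaged. Filled symbols passed both thresholds, which *Tgfb3* did in all 4 fits, and the interval of *Ltbp2* lies below 0 only against the de Bruijn flat cultures.

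The comparisons against each source of flat cultures share their 6 reaggregates. Against the de Bruijn flat cultures, 4 of the 10 genes were called higher (*Tgfb2*, *Tgfb3*, *Tgfbr1* and *Ltbp4*), where 15.2% of all genes were, and *Ltbp2* was called lower, where 10.5% were. Against the unlabelled flat cultures, 4 were called higher (*Tgfb1*, *Tgfb3*, *Ltbp3* and *Ltbp4*), where 3.7% of all genes were, and none lower, where 6.17% were. The log2 fold change of *Ltbp2* was −1.47 with an SE of 0.21 (limma, adjusted p = 0.000410) against the de Bruijn flat cultures, and 0.076 with an SE of 0.30 (limma, adjusted p = 0.880) against the others.

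Between the flat cultures themselves, none of the 10 genes was called in a comparison of the de Bruijn label with the others by limma, where 5.7% of all genes were, and 3 passed an unadjusted p of 0.05 (*Tgfb3*, *Tgfbr1* and *Ltbp2*), as did 3899 of all 16933 genes. *Ltbp2* was higher with the de Bruijn label by a log2 difference of 1.55 with an SE of 0.58 (limma, adjusted p = 0.198), with means of 715 and 261 RPM. *Tgfb3* was lower by a log2 difference of −1.08 with an SE of 0.41 (limma, adjusted p = 0.201), with means of 35.3 and 80.3 RPM. With 2 cultures on each side the intervals were wide, and for *Ltbp2* the 95% interval ran from 0.079 to 3.01.

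No difference with IL-3 was detected among the reaggregates in any of the 10 genes. None was called by limma or passed an unadjusted p of 0.05, and 0% of all genes tested were called, with 68 of them past the unadjusted p. The log2 differences, with IL-3 minus without, ran from −0.15 (*Ltbp3*) to 0.098 (*Tgfbr1*). Because IL-3 differed within each consecutive pair, a fit with these pairs as a block was also made. It called none of the 10 genes, none of them passed an unadjusted p of 0.05, and 564 of all genes did. Its 95% intervals were −0.079 to 0.13 for *Tgfb3* and −0.34 to 0.046 for *Ltbp3*.

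Among the reaggregates, values of several genes lay closer within the consecutive pairs than between them. The mean of *Tgfb3* was 245 RPM in reaggregates 1 and 2, 283 RPM in 3 and 4, and 150 RPM in 5 and 6. *Tgfbr2* followed the same order, at 180, 273 and 140 RPM, as did *Tgfbr3* and *Ltbp4*. *Tgfb1* and *Tgfbr1* had the opposite order, with *Tgfb1* at 44.8, 28.6 and 52.8 RPM. For *Tgfb1*, *Tgfb3*, *Tgfbr2* and *Ltbp4* the log2 means of the pairs spanned between 0.87 and 1.04, and libraries within a pair differed by at most 0.42. *Tgfb2*, *Ltbp1* and *Ltbp2* spanned at most 0.15 between pairs.

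Levels were compared between genes as RPM per kb of merged exons, which were available for all 10 genes. In reaggregates *Ltbp3* at 68.8 ± 9.75 RPM per kb (SD, n = 6) and *Tgfb3* at 66.7 ± 18.1 RPM per kb (SD, n = 6) were the most abundant, and *Ltbp3* was above *Tgfb3* in 4 of the 6 (all but reaggregates 3 and 4). *Ltbp2* had the next highest mean, at 30.0 ± 2.32 RPM per kb, and lay below *Tgfb3* in every reaggregate and above *Tgfbr2* in 4 of the 6 (all but reaggregates 3 and 4). The following genes, *Tgfbr2*, *Tgfbr1*, *Ltbp1*, *Tgfb1*, *Tgfb2* and *Tgfbr3*, had means from 24.4 down to 15.4 RPM per kb, and the range of each overlapped that of the next. *Ltbp4* had the lowest mean, at 8.39 ± 2.76 RPM per kb, below *Tgfbr3* in every reaggregate, and in reaggregates 3 and 4 *Tgfb1* was lower still.

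In flat cultures the order by RPM per kb differed at the top. *Ltbp2* had the highest mean, at 59.6 ± 40.4 RPM per kb (SD, n = 4), and was the most abundant in flat cultures 2, 3 and 4. In flat culture 1 *Tgfbr1*, at 20.2 RPM per kb, was above *Ltbp2*, at 17.5 RPM per kb. *Ltbp3* at 32.5 ± 13.0, *Ltbp1* at 25.5 ± 9.84 and *Tgfb3* at 17.1 ± 10.4 RPM per kb had the next highest means, and each gene's range overlapped that of its neighbour. *Ltbp4* was again last, at 2.54 ± 1.43 RPM per kb, below *Tgfb2* in all 4.

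The summed RPM per kb of the 4 latent binding proteins was 124 ± 12.0 (SD, n = 6) in reaggregates and 120 ± 61.0 (SD, n = 4) in flat cultures, while its makeup differed. *Ltbp3* made up between 50.7% and 58.1% of it in reaggregates and between 21.9% and 36.2% in flat cultures, with no overlap. *Ltbp2* made up between 21.6% and 27.3% in reaggregates and between 35.3% and 57.3% in flat cultures. These are shares of transcript, and no p was computed for them.

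For the ligands the sum did not overlap between the groups, while the shares of *Tgfb3* and *Tgfb1* in it did. The summed RPM per kb was between 80.7 and 113 in reaggregates and between 23.4 and 57.1 in flat cultures. *Tgfb3* held between 54.1% and 75.3% of it in reaggregates and 56.1%, 31.5%, 56.4% and 42.8% in flat cultures 1 to 4. *Tgfb1* held between 9.86% and 27.2% in reaggregates and 20.6%, 44.1%, 17.4% and 38.8% in flat cultures 1 to 4. Both de Bruijn flat cultures lay outside the reaggregate range for these genes, and both unlabelled ones lay inside it. The receptor sum was 57.9 ± 6.91 RPM per kb (SD, n = 6) in reaggregates and 37.5 ± 9.72 (SD, n = 4) in flat cultures, and *Tgfbr3* held a narrow share in reaggregates, between 24.6% and 28.6%.

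**Figure D3:**
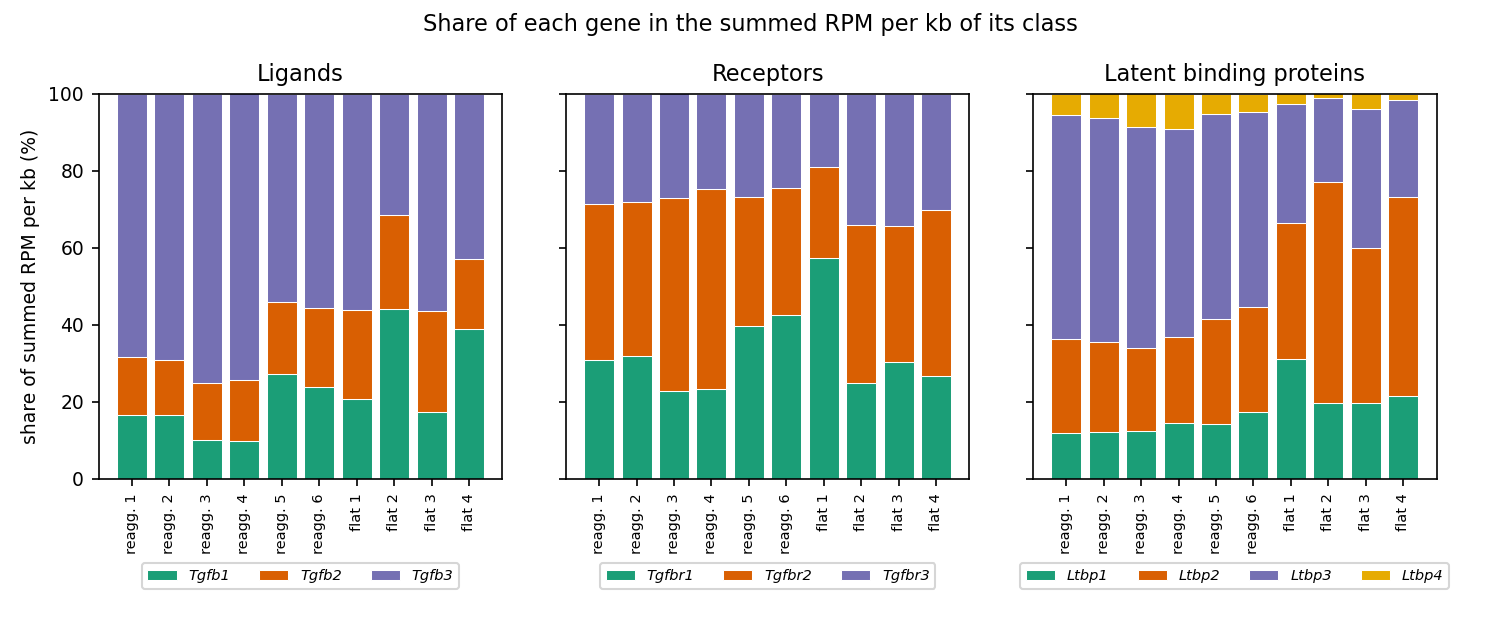
Share (%) of each gene in the summed RPM per kb of its class, ligands, receptors or latent binding proteins, with 1 bar for each library. *Ltbp3* takes over 50% of the latent binding protein sum in each reaggregate and at most 36.2% in a flat culture.

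By Pearson correlation of log2(RPM + 0.5) over the 10 libraries, among 11660 genes with a mean of at least 5 RPM, the genes most like *Tgfb3* were *Ypel2* (r = 0.996), the protease gene *Mmp9* (r = 0.995) and *Dusp15* (r = 0.993). Those most like *Ltbp4* were *Kif26b* (r = 0.997), *Crtc3* (r = 0.994) and *Ptov1* (r = 0.990). Those most like *Ltbp3* were *Ttc28* (r = 0.991), *Pofut2* (r = 0.986) and *Pip4k2c* (r = 0.986). The points fall into the 2 culture forms and into pairs of reaggregates, so that these values describe a shared step between the groups and come with no p.

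RefSeq promoter windows (GRCm38.p6, 250 bases before to 50 after the start of the gene, 300 in all) matched 8 of the 10 genes, and *Tgfb3* and *Tgfbr3* were not matched. The windows of *Tgfb2*, *Ltbp3* and *Ltbp4*, each of which was called higher in reaggregates, are shown. Capitals mark matches to the motifs searched, on either strand. The TATA box was searched as TATAAA, which 13.6% of all 32851 windows hold, and the GC box as GGGCGG, which 35.7% hold. The CCAAT box was searched by those letters, held by 37.4% of the windows, and the E-box as CACGTG, held by 7.15%. A cAMP response element (TGACGTCA) is in 1.79% of the windows. The AP-1 element was read as TGACTCA and is in 5.20%, and the SMAD element as CAGACA and is in 21.0%.
*Tgfb2*, chr1:186705940-186706239, minus strand: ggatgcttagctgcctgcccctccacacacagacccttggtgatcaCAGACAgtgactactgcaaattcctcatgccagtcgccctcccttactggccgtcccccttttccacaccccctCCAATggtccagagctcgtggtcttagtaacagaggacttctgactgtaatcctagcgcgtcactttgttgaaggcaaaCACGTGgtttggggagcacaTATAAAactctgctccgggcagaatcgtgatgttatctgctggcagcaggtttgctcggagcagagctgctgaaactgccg
*Ltbp3*, chr19:5740650-5740949, plus strand: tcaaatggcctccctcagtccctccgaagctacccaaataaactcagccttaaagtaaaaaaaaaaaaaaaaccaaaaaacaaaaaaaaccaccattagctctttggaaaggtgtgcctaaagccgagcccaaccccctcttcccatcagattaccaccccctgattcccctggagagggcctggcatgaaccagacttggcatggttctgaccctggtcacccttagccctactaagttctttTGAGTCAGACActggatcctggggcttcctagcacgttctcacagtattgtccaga
*Ltbp4*, chr7:27337563-27337862, minus strand, 1 of 3 windows: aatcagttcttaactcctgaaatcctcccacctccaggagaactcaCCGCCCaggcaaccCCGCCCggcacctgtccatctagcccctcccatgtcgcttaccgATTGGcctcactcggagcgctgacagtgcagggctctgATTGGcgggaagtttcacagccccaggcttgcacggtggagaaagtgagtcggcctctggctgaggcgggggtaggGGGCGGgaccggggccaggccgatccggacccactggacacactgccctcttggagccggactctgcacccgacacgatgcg

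The *Tgfb2* window holds, in order, a SMAD element, a CCAAT box, an E-box and a TATA box that starts 31 bases before the start of the gene, and no GC box. The *Ltbp3* window holds 1 AP-1 element on the minus strand and 1 SMAD element, which overlap by 2 bases next to the start of the gene, and none of the other motifs searched. The *Ltbp4* window holds 3 GC boxes and 2 CCAAT boxes, and the other *Ltbp4* windows hold 7 and 9 GC boxes. The share of G and C is 54.3% for *Tgfb2*, 48.0% for *Ltbp3*, and 64.3%, 80.3% and 81.3% for the windows of *Ltbp4*. The window of *Tgfb1*, which did not pass the test, holds 6 GC boxes and is 77.0% G and C. A match describes the letters of the window and does not show that a factor binds there.

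Activators of latent TGF-beta were called higher for 5 of 15 genes tested (*Mmp9*, *Mmp14*, *Mmp2*, *Itgb8* and, named after its values were seen, *Bmp1*) and lower for none, where 7.32% of all genes were called higher and 6.53% lower. Their median log2 fold change was 0.81, beside 0.035 over all genes tested. The matrix metalloprotease genes *Mmp2* and *Mmp14*, whose products can cleave the latent complex, rose with little spread among reaggregates. *Mmp2* averaged 2280 ± 81.7 RPM over the 6 reaggregates and 315 ± 147 RPM over the 4 flat cultures (SD; log2 fold change 2.97, limma, adjusted p = 5.79e-05). *Mmp14* was at 1973 ± 94.4 RPM and 259 ± 124 RPM (log2 fold change 3.05, limma, adjusted p = 5.79e-05). *Mmp9* rose from 1.76 ± 2.85 RPM, with flat cultures 2 and 4 under 3 reads, to 25.0 ± 11.4 RPM (limma, adjusted p = 0.00129). Its log2 fold change depended on the pseudocount, at 5.22 with 0.1, 4.15 with 0.5 and 3.59 with 1, and was 2.93 against the unlabelled flat cultures. Against the de Bruijn flat cultures, both under 3 reads, its fold is set by the pseudocount and is not given. *Mmp2*, *Mmp14* and *Mmp9* were also called with pairs averaged, where 1.84% of all genes were called higher. *Itgb8*, the beta subunit of an integrin that activates latent TGF-beta, was called higher (log2 fold change 2.54, from 2.07 to 3.68 over the pseudocounts, limma, adjusted p = 0.0278), but reaggregates 3 and 4, at 2.40 and 2.30 RPM, were below flat cultures 1 and 3, at 2.99 and 3.59 RPM, and the call was lost with pairs averaged. Both de Bruijn flat cultures were at 0 RPM, and *Itgb8* was itself called between the flat sources (limma, adjusted p = 0.00884). Against the unlabelled flat cultures alone its log2 fold change was 1.09 and the call was lost (adjusted p = 0.329). It was also lost without flat culture 2 or 4 or reaggregate 1 or 2 (adjusted p from 0.0577 to 0.0975, in a range of 0.00143 to 0.329 over all alternatives).

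Of the matrix partners of the latent complex, 2 of 6 tested were called higher and none lower (7.32% and 6.53% of all genes), with a median log2 fold change of 1.08. *Emilin1*, whose product restrains the maturation of pro-TGF-beta, averaged 552 ± 131 RPM over the 6 reaggregates and 159 ± 102 RPM over the 4 flat cultures (SD; log2 fold change 1.99, limma, adjusted p = 0.00279; 1.39 against the unlabelled and 2.59 against the de Bruijn flat cultures). *Fbln5*, an elastic fibre gene, was at 185 ± 29.1 and 81.1 ± 29.5 RPM (log2 fold change 1.26, limma, adjusted p = 0.00445). Neither was called with pairs averaged. *Fbln5* fell below 2-fold without flat culture 4 (log2 fold change 0.96) and against the unlabelled flat cultures (0.91). This left 1 of the 6 called, where 4.52% and 3.7% of all genes were called higher.

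Of the co-receptors and extracellular inhibitors, 2 of 10 tested were called higher and 1 lower (7.32% and 6.53% of all genes), with a median log2 fold change of 0.50. The proteoglycan gene *Dcn*, whose product binds TGF-beta, was between 47.3 and 478 RPM in reaggregates, and flat cultures 1 to 4 were at 7.48, 0.119, 22.8 and 0.486 RPM (log2 fold change 5.28, limma, adjusted p = 0.00414). Reaggregates 3 and 4 stood far above the others, and the de Bruijn flat cultures were lowest, with flat culture 2 under 3 reads, and the log2 fold change ran from 4.90 to 5.86 over the pseudocounts. *Htra3*, a secreted serine protease, was at 118 ± 24.2 RPM (SD, n = 6) against 35.1 ± 28.1 RPM (SD, n = 4; log2 fold change 2.12, limma, adjusted p = 0.00644). Both genes were called lower with the de Bruijn label between the flat sources (limma, adjusted p = 0.0255 and 0.0267). Against the unlabelled flat cultures the log2 fold change was 3.22 for *Dcn* and 1.02 for *Htra3*. Against the de Bruijn ones it was 7.34 and 3.21, where that of *Dcn* depends on the pseudocount because flat culture 2 was under 3 reads. *Fmod* was called lower (limma, adjusted p = 0.0285), but reaggregates 2 to 5 and flat culture 3 were under 3 reads, so that its fold is not given. The gene was below 0.5 RPM in every reaggregate and passed the filter only through flat cultures, so that no change is read from this call, the 1 lower of the list. It was not called without flat culture 2 or 4 or reaggregate 3 or 4 (adjusted p from 0.0568 to 0.0769, in a range of 0.00231 to 0.199 over all alternatives). None of these calls was kept with pairs averaged.

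Of the intracellular transducers and their inhibitors, 3 of 16 were called higher and none lower (7.32% and 6.53% of all genes), with a median log2 fold change of 0.70. *Ski*, a SMAD corepressor, averaged 225 ± 30.3 RPM over the 6 reaggregates and 103 ± 40.6 RPM over the 4 flat cultures (SD; limma, adjusted p = 0.00436), and fell below 2-fold without flat culture 1 (log2 fold change 0.98). *Pmepa1*, a TGF-beta-induced inhibitor of SMAD signalling, was at 218 ± 51.6 RPM in reaggregates, and flat cultures 1 to 4 were at 11.1, 183, 30.4 and 133 RPM (log2 fold change 1.97, limma, adjusted p = 0.0377). The unlabelled flat cultures were far below the reaggregates and flat culture 2 was within their range. Against the de Bruijn flat cultures alone the log2 fold change was 0.45 and the call was lost (adjusted p = 0.157). *Tgif2*, another corepressor, was called higher at low levels, with flat culture 2 under 3 reads (2.58 ± 1.43 against 0.595 ± 0.192 RPM, log2 fold change 1.35, from 1.06 to 1.78 over the pseudocounts, limma, adjusted p = 0.0207). Single libraries decided the calls of *Pmepa1*, lost without flat culture 1 or 3 or any of reaggregates 1 to 4 (adjusted p from 0.0671 to 0.0767, in a range of 0.000616 to 0.189 over all alternatives), and of *Tgif2*, lost without flat culture 2 or 4 (0.0554 and 0.0514, in a range of 0.00535 to 0.134), the upper end of which was against the unlabelled flat cultures. Without flat culture 1 the list had 1 gene called higher and 1 lower, where 6.81% and 6.79% of all genes were. With pairs averaged none of the 3 was called.

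Of 28 genes known to be induced by TGF-beta in mesenchymal cells, 7 were called higher and 3 lower (7.32% and 6.53% of all genes), with a median log2 fold change of 0.38, so that the list had no single direction. The matrix genes *Postn* (log2 fold change 6.69, limma, adjusted p = 0.000768), *Col3a1* (4.11, adjusted p = 0.00439) and *Col1a1* (1.93, adjusted p = 0.00643) rose, along with *Pmepa1*. *Postn* was at 701 ± 293 RPM (SD, n = 6) against 20.7 ± 33.8 RPM (SD, n = 4). Against the unlabelled flat cultures the log2 fold changes were 4.55 for *Postn*, 2.10 for *Col3a1* and 1.14 for *Col1a1*, and against the de Bruijn ones they were 8.83, 6.12 and 2.72. The 8.83 of *Postn* depends on the pseudocount, because flat cultures 2 and 4 were at 0.954 and 0.85 RPM. Against all flat cultures its log2 fold change was 6.95 with a pseudocount of 0.1 and 6.45 with 1. Leaving out single flat cultures moved that of *Col3a1* between 3.39 and 5.03. *Hmga2*, a chromatin protein gene, was lower in every reaggregate than in every flat culture (50.7 ± 16.0 against 168 ± 99.7 RPM, log2 fold change −1.55, limma, adjusted p = 0.0112), as was *Cyr61* (212 ± 17.5 against 667 ± 279 RPM, log2 fold change −1.51, limma, adjusted p = 0.00411). *Hmga2* was at 78.1, 243, 85.1 and 264 RPM in flat cultures 1 to 4 and was called higher with the de Bruijn label between the flat sources (limma, adjusted p = 0.0303). Against the unlabelled flat cultures alone neither call was kept, with log2 fold changes of −0.74 for *Hmga2* (adjusted p = 0.109) and −1.11 for *Cyr61* (adjusted p = 0.0547). *Cnn1*, a contractile gene, was also called lower (limma, adjusted p = 0.0348), but reaggregates 1, 4 and 5 were under 3 reads, so that its fold is not given, and its call was lost without flat culture 2 or 4 or reaggregate 1, 4, 5 or 6 (adjusted p from 0.0537 to 0.110, in a range of 0.00804 to 0.242 over all alternatives). Without flat culture 1, 6 of the 28 were called lower, where 6.79% of all genes were. With pairs averaged 2 of the 28 were called higher, where 1.84% of all genes were. None was called lower, where 741 genes were called in either direction. The 2 were *Postn* and, named after its values were seen, *Bhlhe40*.

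Markers were read to check the label. Of 8 stromal markers 7 were tested, with *Thy1* below 0.5 RPM in every library, and 4 were called higher and 1 lower in reaggregates (7.32% and 6.53% of all genes). With pairs averaged 2 were called higher, where 1.84% of all genes were, and none lower, where 741 genes were called in either direction. Their summed level was between 7675 and 11422 RPM in reaggregates and was 3191, 7580, 6438 and 5842 RPM in flat cultures 1 to 4. *Col1a1* was the most abundant of them except in flat cultures 2 and 4, where *Cxcl12*, at 4560 and 3990 RPM, was above *Col1a1*, at 1440 and 698 RPM. *Ptprc* and *Emr1*, which define blood cells and macrophages, were at 0 in all libraries, and the 5 epithelial markers summed to at most 0.599 RPM. Of 5 adipocyte markers 2 were called lower in reaggregates (*Fabp4* and *Pparg*), where 6.53% of all genes were. None of the 5 was called with pairs averaged (limma, adjusted p = 0.185 and 0.177 for these 2), where 741 genes were called in either direction. Their summed level was between 225 and 650 RPM in reaggregates and was 335, 1197, 464 and 1338 RPM in flat cultures 1 to 4, high in both de Bruijn flat cultures. *Lpl* was the most abundant of them except in flat cultures 2 and 4, where *Fabp4*, at 435 and 711 RPM, was above *Lpl*, at 365 and 331 RPM. The part of these markers in the differences between reaggregates and flat cultures was not tested.

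Of 4 osteoblast markers in the table, led by *Runx2*, none was called, and they summed to between 37.9 and 107 RPM over all libraries. Haematopoietic markers summed to at most 9.38 RPM, led by *Cd68*. Of the megakaryocyte markers 1 of 3 tested was called higher (*Itga2b*, named after its values were seen, as was *Vwf*), where 7.32% of all genes were, and they summed to between 9.78 and 24.6 RPM in reaggregates and to 6.56, 1.19, 12.6 and 4.25 RPM in flat cultures 1 to 4. Endothelial markers summed to at most 6.07 RPM in reaggregates and 0.842 RPM in flat cultures. *Vwf* was the most abundant of them in every reaggregate, and *Pecam1*, at 0.716 RPM, was in flat culture 2, where the flat sum was highest. Of 2 tested, *Vwf* was called higher, where 7.32% of all genes were. It was below 0.5 RPM in every flat culture and passed the filter only through the reaggregates. Flat cultures 2 and 3 were under 3 reads, so that no change is read from this call. With pairs averaged neither *Itga2b* (adjusted p = 0.127) nor *Vwf* (0.0562) was called.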

How the data were processed

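Per the submitters' processing notes and the study's methods, single-end reads were aligned with TopHat 1.2.0 to NCBIM37/mm9, and reads that mapped to several places were shared among Ensembl genes. The authors deposited RPM values, reads per gene scaled to an equal total in each library. Because such shared reads give fractions, RPM was not turned back into counts. The deposited columns of the authors' own log2 fold change and adjusted p-value (DESeq, reaggregate against flat) were not used.

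Genes above 0.5 RPM in at least 1 library were compared on log2(RPM + 0.5) with limma 3.58.1 in R 4.3.3, by a linear model with empirical Bayes moderation and a mean-variance trend. Fold changes on this scale understate changes of low genes. A gene was called at 2-fold or more where its p, adjusted by Benjamini and Hochberg over all genes tested, was 0.05 or less. Single genes were also compared by exact permutation over libraries. The comparison was tested on simulated data. Gene positions and merged exon lengths came from GENCODE M1 (NCBIM37), whose gene models may differ from those the reads were counted on, and promoters from RefSeq (GRCm38.p6). Python 3.11.15 and Matplotlib 3.10.9 were used.

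The 10 genes and the gene lists were chosen with earlier results of these data known. Named from each list were up to 4 called genes in each direction with the largest fold changes, or, with fewer than 2 called, the 2 most abundant. Genes most like the 3 called genes with the largest folds were the 3 with the highest correlation. Alternatives covered pseudocount, filter, scaling, trend, pairs of reaggregates, the replicate block, IL-3, source and each library left out.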

Additional observations from a re-analysis of the deposited data

Results flagged for a closer look

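In 56 groups of values, covering 28 genes in each culture form, the highest or lowest library was set against the spread of its group, and 2 groups had a library far from the others, where chance gives about 1 in 20. Both were values of flat culture 3. *Mmp9* was at 5.99 RPM there and between 0 and 0.921 RPM in the other flat cultures, and *Postn* was at 71.0 RPM and between 0.85 and 9.90 RPM. Neither reached the lowest reaggregate. None of the 20 groups of the ligands, receptors and latent binding proteins had such a library.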

How the results depend on the processing

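Between reaggregates and flat cultures, 229 of 230 log2 fold changes of the 10 genes over 23 alternatives kept their direction and 209 kept both direction and side of the threshold, with 14 losing and 6 gaining a call. *Ltbp2* reversed, to 0.076, against the unlabelled flat cultures. The causes below were not tested, and genes under 3 reads (0.318 to 0.408 RPM) cannot be compared at this depth.

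Genes of the family called higher numbered 1 with pairs averaged, 2 without IL-3 and 1 with IL-3 alone, and from 2 to 5 with single libraries left out. Genes called lower numbered 1 against the de Bruijn flat cultures and from 0 to 1 with single libraries left out. All genes called in either direction numbered 2345. They numbered 741 with pairs averaged, 819 without IL-3, 637 with IL-3, 4354 against the de Bruijn flat cultures and from 1581 to 3643 with single libraries left out. The lower counts of the family with pairs averaged or in either IL-3 group thus went with fewer calls among all genes. Exact permutation with pairs averaged, added after the data were seen, gave p from 0.0571 to 0.4 over the 10 genes.

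For the gene lists, alternatives were added after the data were seen. All 412 log2 fold changes of named list genes kept their direction, and 82 lost the call. Activators called higher numbered 3 with pairs averaged, without IL-3 or with IL-3, and 8 against the de Bruijn flat cultures; lower, 1 against either source, and from 0 to 1 with single libraries left out. Matrix partners called higher numbered 0 with pairs averaged or with IL-3, 1 without IL-3 or against unlabelled flat cultures, and from 1 to 3 with single libraries left out. Co-receptors and inhibitors called higher numbered 0 with pairs averaged or with IL-3 and 1 without IL-3; lower, 2 at pseudocount 0.1, under quantile normalization or against the de Bruijn flat cultures, 0 at pseudocount 1, with no filter, with a mean of at least 1 RPM, with pairs averaged, in either IL-3 group or against unlabelled flat cultures, and from 0 to 2 with single libraries left out. Transducers called higher numbered 1 with no filter, 0 with pairs averaged or in either IL-3 group, 5 against unlabelled flat cultures, and from 1 to 4 with single libraries left out; lower, 1 against the de Bruijn flat cultures, and from 0 to 1 with single libraries left out. Response genes called higher numbered 3 with no filter and 2 with pairs averaged or in either IL-3 group; lower, 0 in these 3 and against unlabelled flat cultures, 8 against the de Bruijn flat cultures, and from 2 to 6 with single libraries left out. Of all genes tested, 15.2% were called higher and 10.5% lower against the de Bruijn flat cultures, and 3.7% and 6.17% against the unlabelled ones. With single libraries left out, from 4.52% to 12.5% of all genes were called higher and from 4.81% to 8.99% lower. With pairs averaged 1.84% were called higher. For the other settings only counts in either direction are given, beside 2345 genes called in the main comparison. All genes called numbered 2648 at pseudocount 0.1, 2054 at pseudocount 1, 1811 with no filter and 2265 with a mean of at least 1 RPM. They numbered 2390 under quantile normalization, 741 with pairs averaged, 819 without IL-3 and 637 with IL-3.

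With replicate number as a replicate block, 5 of the 10 genes were called higher, with *Tgfbr2* added, 5 transducers were, and 3039 genes were called in all. Deviations of equally numbered libraries correlated between −0.21 and 0.15, so the numbers were not taken as pairs.

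Between IL-3 groups, 95 of 110 differences kept their direction, and all reversals came with single reaggregates left out. Leaving out 1 reaggregate without the block leaves a consecutive pair incomplete, so that these differences also hold differences between pairs. They ran from −0.33 to 0.17 (*Tgfb1*), −0.0056 to 0.13 (*Tgfb2*), −0.25 to 0.29 (*Tgfb3*), −0.065 to 0.20 (*Tgfbr1*), −0.24 to 0.28 (*Tgfbr2*), −0.16 to 0.032 (*Tgfbr3*), −0.27 to 0.023 (*Ltbp3*) and −0.35 to 0.28 (*Ltbp4*). Between flat sources, 81 of 90 kept it. With single flat cultures left out they ran from −0.37 to 0.69 (*Tgfbr2*), −0.72 to 0.62 (*Tgfbr3*), −0.21 to 1.24 (*Ltbp3*) and −1.11 to 0.60 (*Ltbp4*), and under quantile normalization *Tgfbr3* was 0.063 and *Ltbp4* 0.000784, and under median-ratio scaling *Tgfbr3* was 0.083. None of the 10 genes was called between IL-3 groups or flat sources in any alternative.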

Other observations

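Of 28 genes known to be induced by TGF-beta, 10 were called between the de Bruijn flat cultures and the others (limma), 7 higher and 3 lower with the de Bruijn label, where 5.7% of all genes were called in either direction. The genes below were chosen after their values were seen. *Tagln* and *Acta2*, which encode proteins of the contractile apparatus, were at 18.7, 589, 39.8 and 940 RPM and at 152, 2050, 310 and 1790 RPM in flat cultures 1 to 4. The inhibitory *Smad7* was at 27.3, 110, 39.6 and 121 RPM. In each of these 3 genes both de Bruijn flat cultures lay far above both others. The 3 called lower were *Col3a1*, at 345, 38.8, 960 and 31.5 RPM in flat cultures 1 to 4, *Timp3*, at 1190, 403, 1300 and 281 RPM, and *Cdkn2b*, at 155, 59.3, 141 and 50.9 RPM. The reaggregates reached from below the unlabelled flat cultures to above them for *Tagln* (4.01 to 46.6 RPM), *Acta2* (63.8 to 404 RPM) and *Smad7* (22.7 to 42.7 RPM). The adipocyte markers *Fabp4* and *Pparg* were high in the same 2 flat cultures, at 435 and 711 RPM and at 395 and 295 RPM, and their part in these differences was not tested.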
